A study of Mus musculus with 15 samples.

Results

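The genes described here are the clustered histone genes of the mouse, defined as protein-coding genes whose GENCODE M21 symbol begins with Hist1h, Hist2h, Hist3h or Hist4h. The annotation holds 67 such genes, and 59 of them have a row in the authors' deposited table of 38355 genes. They comprise 6 H1, 18 H2A, 18 H2B, 12 H3 and 13 H4 genes. The RNA came from mouse embryonic stem cells grown on gelatin in 2i medium, which keeps them naive with LIF, the MEK inhibitor PD0325901 and the GSK3 inhibitor CH99021. The 15 samples form 5 groups of 3 biological replicates. The wild types are E14-WT (line E14TG2a) and Ezh2-WT, whose Ezh2 alleles are floxed (Ezh2 fl/fl). Ezh2-KO (Ezh2-/-) and Suz12-KO (Suz12-/-) each lack a core component of the Polycomb complex PRC2, the methyltransferase of lysine 27 on histone H3. Ring1A+B-DKO (Ring1A-/- and Ring1B-/-) lacks the ubiquitin ligases of the Polycomb complex PRC1, which modify histone H2A. The sources used here do not say whether a line is 1 clone. E14-WT is the control of Suz12-KO, Ring1A+B-DKO and Ezh2-WT, so these 3 comparisons share its libraries. Ring1A+B-DKO has no wild type of its own line here, and the parent of Suz12-KO is not stated, so genotype and line cannot be told apart for them.

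Replication-dependent histone genes supply the histones that package new DNA and are transcribed mainly in S phase. Their mRNAs usually lack a poly(A) tail and end instead just after a stem-loop that is bound by the protein SLBP. A few members are germline forms: Hist1h1t encodes the testis linker histone H1t, and Hist1h2aa and Hist1h2ba encode the testis core histones TH2A and TH2B. The RNA was depleted of ribosomal RNA rather than selected by poly(A), per the labels' protocols, so mRNAs without a tail were not removed at that step.

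Every fold change and call below is that of the authors' deposited table, which gives for each gene and comparison 1 log2 fold change from DESeq2 and 1 call of changed or not. It holds no value per sample, standard error or p-value, so the spread between replicates, the depth of each sample and the error of each gene are unknown here, and no difference between comparisons or between members could be tested. A positive value means more RNA in the group named first. The 3 columns against E14-WT appear to be deposited the other way round and were turned: genes inferred from the missing values to have reads in Suz12-KO, Ring1A+B-DKO or Ezh2-WT and none in E14-WT were negative in 1064 of 1064, 2259 of 2259 and 1170 of 1170 cases. Read as their headers are worded, those 3 directions would all be opposite. The words rose and fell are kept for genes that the authors called, by criteria that the sources used here do not give.

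Members with a value numbered 55 in Ring1A+B-DKO, 54 in each of Suz12-KO and Ezh2-WT and 53 in Ezh2-KO, and 53 had one in all 4. The 8 members without a row were 5 H3 and 3 H2B genes. All 8 have identifiers of ENSMUSG00000099517 or above, while every member with a row has one of ENSMUSG00000096010 or below. The deposited identifiers are those of Ensembl release 72, and 36602 of 38355 matched GENCODE M21. Whether the 8 genes stand there under other identifiers was not checked. Another 4 had a row and no value, namely Hist2h2aa1, Hist2h2aa2, Hist2h3c1 and Hist1h2br. The members resemble one another closely in sequence. Of the 60-base windows of their GENCODE M21 transcripts, the first 3 of those 4 genes had 0% found in no other annotated gene, and Hist1h2br had 11.8%. Few unique windows did not always go with a missing value: Hist2h3b, also at 0%, and Hist1h2ao, at 6.65%, had a value in all 4 comparisons. The share of such unique windows was under 50% in 32 of 61 core histone genes and in 0 of 6 H1 genes. How the authors treated reads that match several genes is not given, so the values of the core members with few unique windows are uncertain. Another annotated gene overlaps 24 of the 67 members, in 21 cases on the opposite strand, and the use of strand in counting is not given either.

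The stem-loop is the shared mark of this class of mRNA, and its forms in the members are shown with the stem in capitals and the loop in lower case, as DNA letters of the GENCODE M21 transcripts. The search took, on the sense strand, a left arm of 6 bases that began with GG and ended with CT, a loop of 4 bases beginning TTT, and a right arm paired with the left, and 44 members held it.
Shared by 26 members, among them Hist1h1c, Hist1h2ab and Hist1h3a: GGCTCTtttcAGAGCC
Shared by 7 H4 members, among them Hist4h4 and Hist1h4d: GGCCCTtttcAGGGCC
Shared by 6 members, among them Hist1h1t and Hist1h3c: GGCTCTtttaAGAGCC
Hist2h4 and Hist1h4i: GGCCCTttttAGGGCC
Hist1h4j and Hist1h4b: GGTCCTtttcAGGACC
Hist2h2ac: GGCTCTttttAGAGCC
All H1, H2A, H2B and H3 genes with a stem-loop shared the left arm GGCTCT, while the H4 genes had GGCCCT or GGTCCT. For the other 23 members the annotated transcripts hold no match, which says nothing of the sequence beyond their annotated end.

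The promoters of the testis genes are shown because 3 of the 4 calls among the members fell on them. Sequences are those of RefSeq on GRCm38.p6, 250 bases up to the RefSeq start, with motifs on either strand in capitals.
Hist1h1t, chr13:23695561-23695810, plus strand: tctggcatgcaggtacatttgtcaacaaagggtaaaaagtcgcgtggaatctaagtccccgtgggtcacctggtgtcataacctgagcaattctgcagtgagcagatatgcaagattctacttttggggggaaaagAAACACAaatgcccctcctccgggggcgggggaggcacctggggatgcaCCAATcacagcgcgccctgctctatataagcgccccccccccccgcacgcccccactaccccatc
Hist1h2ba, chr13:23934157-23934406, minus strand: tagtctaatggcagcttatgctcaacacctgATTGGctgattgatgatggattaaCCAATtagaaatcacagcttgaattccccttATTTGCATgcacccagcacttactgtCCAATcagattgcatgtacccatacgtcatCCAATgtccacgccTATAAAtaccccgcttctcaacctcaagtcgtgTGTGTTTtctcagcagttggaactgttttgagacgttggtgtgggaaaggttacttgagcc
Hist1h2ba and Hist1h2aa start 306 bases apart on opposite strands, so the second sequence lies between them. The motifs searched, on both strands, were the CCAAT box (CCAAT), the TATA box (TATAAA), the octamer known from H2B promoters (ATTTGCAT) and the H1 box known from H1 promoters (AAACACA). The Hist1h1t sequence holds an H1 box and a CCAAT box, and the sequence between the testis core genes holds all 4 motifs. Only exact letters were searched, so near forms such as tatataag in the Hist1h1t sequence are not marked. A RefSeq promoter window of 300 bases, 250 before and 50 after the start, was matched for 61 members. In those windows CCAAT was found in 85.2% of members and 37.9% of 27025 promoters, and TATAAA in 57.4% and 14.2%. The octamer was found in 6 of 16 H2B, 7 of 17 H2A and 0 of the other 28 member promoters, against 1.75% of all promoters. The H1 box was found in 5 of 6 H1 promoters and 7.14% of all promoters. H4 promoters held CCAAT in 3 of 12. A match describes letters only, and no binding was measured.

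The highest values among the members were those of testis histone genes, Hist1h1t in Ezh2-KO and Suz12-KO and the TH2A and TH2B pair in Ring1A+B-DKO. Hist1h1t (ENSMUSG00000036211, chromosome 13, 23695814 to 23696725 in GRCm38) rose in Suz12-KO in the authors' deposited table, with a log2 fold change of 1.91, the highest of all 18498 genes with a value there. It stood at 1.14 in Ezh2-KO, 0.61 in Ring1A+B-DKO and 0.18 in Ezh2-WT, without a call. All of its windows (100%) are unique. Hist1h2ba (ENSMUSG00000050799, chromosome 13, 23933773 to 23934156) rose by 1.87 on the log2 scale in Ring1A+B-DKO and stood at 0.58, -0.03 and 0.39 in Suz12-KO, Ezh2-KO and Ezh2-WT. Its divergent partner Hist1h2aa (ENSMUSG00000060081, chromosome 13, 23934462 to 23934851) rose by 1.48 in Ring1A+B-DKO and stood at -0.05, -0.18 and 0.29 in the same 3. The linker gene was thus called in Suz12-KO and in no other comparison, Ezh2-KO included, and the core pair in Ring1A+B-DKO, and whether the comparisons differ was not tested. Of the windows of Hist1h2ba and Hist1h2aa 63.7% and 78.9% are unique, and an antisense gene model, Gm44344, overlaps the latter. Of the other spermatid chromatin genes listed, the bromodomain gene Brdt rose by 1.79 in Ring1A+B-DKO. Tnp1, a transition protein gene, had a value of 0.15 there and in no other comparison. H1foo and Dcn hold the same value, a mark of very few reads. The protamine genes Prm1, Prm2 and Prm3 and the spermatid linker genes H1fnt and Hils1 had no value in any comparison.

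**Figure D1:**
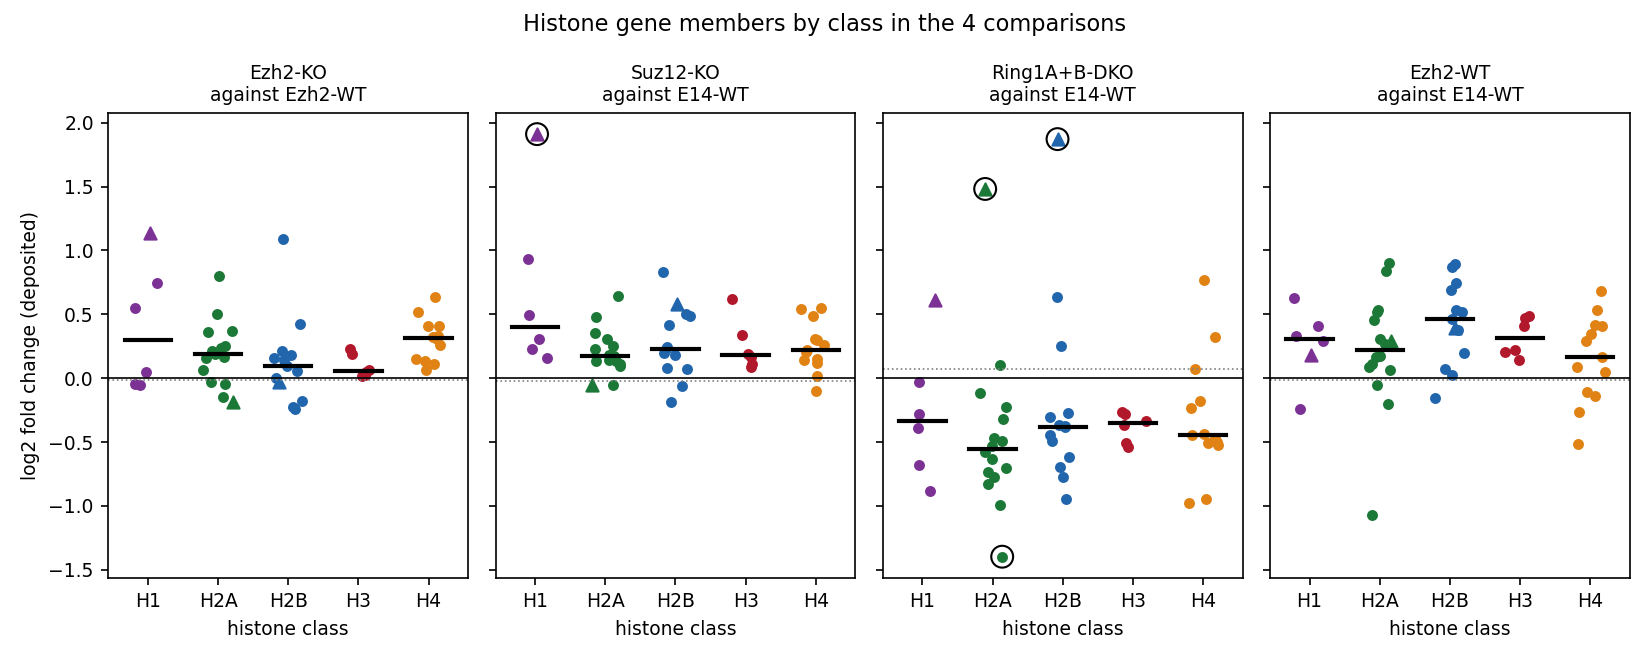
Deposited log2 fold changes (y axis) of the members by histone class (x axis) in the 4 comparisons. Points are genes, triangles the 3 testis genes, circles the authors' calls, bars the class medians and the dotted line the median of all genes. Most members lie above 0 in 3 panels and below 0 in Ring1A+B-DKO, where the circled triangles stand at 1.48 and 1.87.

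Ring1A+B-DKO was set against E14-WT to read transcripts after loss of PRC1. Histone genes stood below their level in E14-WT across all 5 classes in the authors' deposited table. Of 55 members 46 were below 0, beside 44.6% of all genes, and the median log2 fold change was -0.44 beside 0.07 over all genes. The authors called 3 members, beside 3.00% of all genes, of which 2 were higher, beside 2.38%, and 1 lower, beside 0.620%. The members at 1 or more were the 2 called higher, beside 6.73% of all genes, and the 1 at -1 or less was the one called lower, beside 1.37%. The single decrease was Hist1h2af (ENSMUSG00000061991, chromosome 13, 23533906 to 23534304), an H2A gene, which fell to -1.40. Only 8.24% of its windows are unique, and the antisense model Gm44297 overlaps it, so its value is uncertain. With Hist1h2af, 22 members stood at -0.5 or less, beside 9.18% of all genes.

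Among the classes in Ring1A+B-DKO, H2A had the lowest median, -0.55 over 16 genes, and -0.58 over 15 without Hist1h2aa. Over the 6 H2A genes with at least 50% of windows unique it was -0.36, above the -0.44 of the 9 such H4 genes. Those 6 include the testis gene Hist1h2aa, at 1.48. The others ranged from Hist2h2ac at -0.63 to Hist3h2a at -0.11, with Hist1h2ae in the middle at -0.49. Among members with mostly unique windows, the place of H2A below H4 thus depended on whether Hist1h2aa was kept. Hist1h2ag and Hist2h2ab, both H2A genes, stood at -0.99 and -0.83. H2B stood at a median of -0.38 over 14 genes, with Hist1h2bl lowest at -0.94. H4 stood at -0.44 over 13, from Hist1h4b at -0.98 and Hist1h4a at -0.95 up to Hist4h4 at 0.76. H3, where 6 of 12 genes had a value, was the narrowest class, between -0.54 for Hist1h3a and -0.26 for Hist1h3c. The 5 somatic H1 genes ranged from Hist1h1b at -0.88 through Hist1h1d at -0.68, Hist1h1a at -0.39 and Hist1h1e at -0.28 to Hist1h1c at -0.03. All windows of Hist1h1b and Hist1h1a are unique, so low values were also seen without near-identical copies. The 28 members with at least 50% of windows unique, testis genes apart, had a median of -0.44, and the 24 with fewer had -0.50.

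Outside the testis genes 6 members stood above 0 in Ring1A+B-DKO, none of them called. Hist4h4 stood at 0.76, the H2B gene Hist3h2ba at 0.64, Hist1h4i at 0.32, Hist1h2bq at 0.25, Hist1h2ao at 0.10 and Hist2h4 at 0.07. Hist1h2bq had no value in the other 3 comparisons and had a value there that 150 genes hold in common, a mark of very few reads. Hist4h4, Hist3h2ba and Hist2h4 lie outside the large Hist1 cluster. All 24 members with a value in the second stretch of Hist1 (chromosome 13, 23531050 to 23934851), testis genes apart, were below 0, with a median of -0.50. The first stretch (21715763 to 22043676) had 16 of 19 below 0 and a median of -0.45, and Hist2 on chromosome 3 had 5 of 6 and -0.37.

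**Figure D2:**
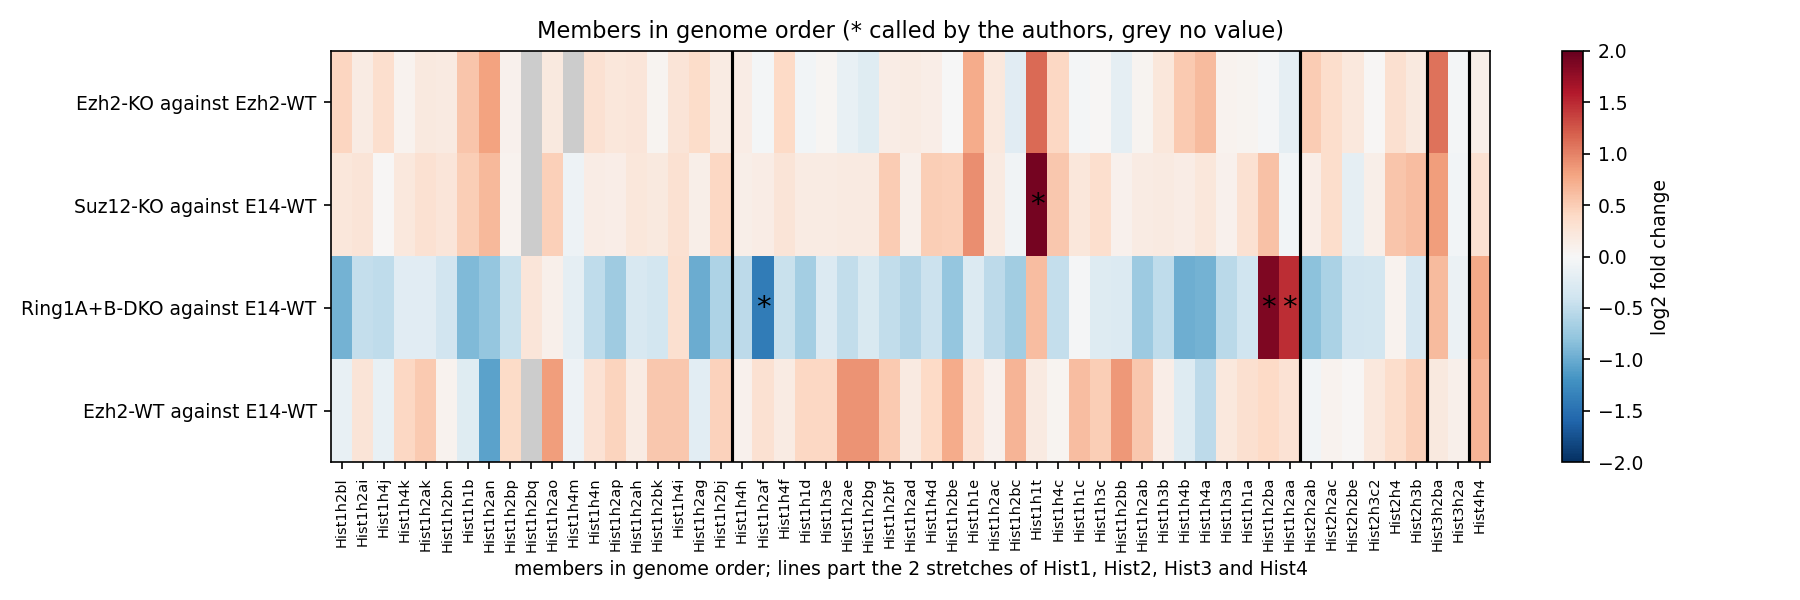
Deposited log2 fold change (colour) of the 55 members with a value in genome order (x axis) in the 4 comparisons (rows). Asterisks are the authors' calls and grey cells have no value. The Ring1A+B-DKO row is blue along Hist1 except at Hist1h1t, Hist1h2ba and Hist1h2aa and a few members of the first stretch.

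The comparisons of Ezh2-KO with Ezh2-WT and of Suz12-KO with E14-WT ask what loss of PRC2 does, and they share no library. In both, the members stood slightly above their controls in the authors' deposited table. In Ezh2-KO 42 of 53 were above 0, beside 47.8% of all genes, with a median of 0.17 beside -0.01. Members at 0.5 or more numbered 8, beside 3.58% of all genes, and at 1 or more 2, Hist1h1t and Hist3h2ba, beside 0.227%. The authors called 0 of them, beside 0.177% of all genes in either direction. In Suz12-KO 49 of 54 were above 0, beside 46.4%, with a median of 0.21 beside -0.03. The authors called 1 member, Hist1h1t, beside 0.200% of all genes, or 0.0865% called higher, and 9 stood at 0.5 or more, beside 3.61%. Medians of this size are small, and no error is available to set them against.

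Of the 8 members at 0.5 or more in Ezh2-KO and the 9 in Suz12-KO, 4 were the same, namely Hist1h1t, Hist3h2ba, Hist1h1e and Hist1h2an. The share of all genes at 0.5 or more in both was not counted, so this overlap was not read as particular to the members. After Hist1h1t, the H2B gene Hist3h2ba (chromosome 11, 58948920 to 58949533) stood at 1.09 in Ezh2-KO and 0.83 in Suz12-KO. The linker gene Hist1h1e stood at 0.74 and 0.93, and Hist1h1b at 0.55 and 0.49. Hist1h1e overlaps Hist1h2be on the same strand, which stood at -0.00 and 0.48. Hist1h2an, an H2A gene with 14.7% of windows unique, stood at 0.80 and 0.64. Others were high in one knockout only, such as Hist1h4a at 0.64 and 0.22, Hist1h4b at 0.52 and 0.15, Hist2h2ab at 0.51 and 0.14, Hist2h3b at 0.19 and 0.62 and Hist1h2ba at -0.03 and 0.58. The linker genes Hist1h1a, Hist1h1c and Hist1h1d stood at 0.05, -0.05 and -0.06 in Ezh2-KO and at 0.30, 0.23 and 0.16 in Suz12-KO. The class medians in Ezh2-KO were 0.30 for H1, 0.19 for H2A, 0.09 for H2B, 0.06 for H3 and 0.31 for H4, and all 12 H4 genes were above 0, from Hist1h4k at 0.07 to Hist1h4a at 0.64. The H1 median was 0.05 over the 5 genes other than Hist1h1t. Over the 6 H2A and 8 H2B genes with at least 50% of windows unique the medians were 0.07 and -0.02. These genes include Hist1h2aa and Hist1h2ba, without which the middle genes were Hist1h2ak at 0.19 and Hist1h2be at -0.00. In Suz12-KO the class medians were 0.40, 0.17, 0.23, 0.18 and 0.22 in the same order, and 0.30 for H1 without Hist1h1t. The lowest members were Hist1h2bg and Hist1h2bc in Ezh2-KO, at -0.24 and -0.23, and Hist2h2be in Suz12-KO, at -0.19.

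Across the 53 members with both values Pearson's r between the PRC2 knockouts was 0.65 and Spearman's rho 0.39, and 44 had the same sign. Without the testis genes r was 0.56 and rho 0.36 over 50 members, and over all 16426 genes r was 0.34 and rho 0.29, with the same sign in 9683. Most members were above 0 in each knockout, so many would share a sign in any case. These are descriptions across genes, which share libraries, sequence and, for neighbours, promoters. Among members with under 50% of windows unique r was 0.27 over 22, and among the others, testis genes apart, 0.66 over 28. Between Ezh2-KO and Ring1A+B-DKO, which share no library either, r was -0.04 and rho -0.22 over 53 members, and 15 had the same sign; over all 16786 genes r was -0.14 and rho -0.13, with the same sign in 7751. Correlations were computed for these 2 pairs of comparisons only, which share no library.

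**Figure D3:**
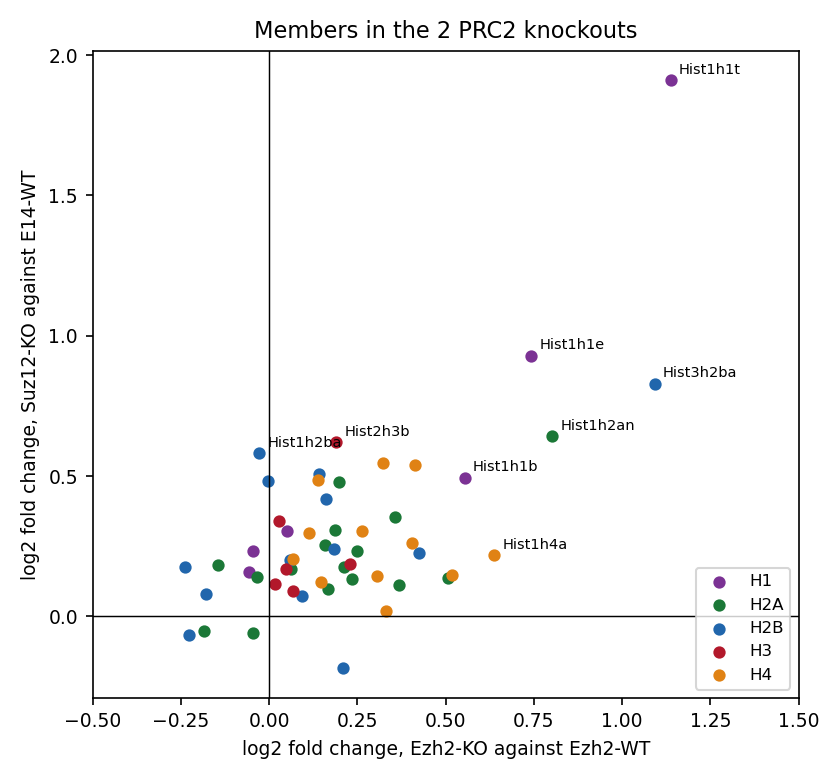
Deposited log2 fold change of each member in Ezh2-KO (x axis) and Suz12-KO (y axis), coloured by class. Hist1h1t stands apart at 1.14 and 1.91, followed by Hist3h2ba and Hist1h1e.

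The comparison of Ezh2-WT with E14-WT shows how far 2 wild-type lines differ in these genes, with no knockout involved. Of 54 members in the authors' deposited table, 45 were above 0, beside 48.2% of all genes, and the median was 0.29 beside -0.02. The authors called 0 members, beside 0.607% of all genes. At 0.5 or more stood 13 members, beside 8.34%, and at -1 or less 1, Hist1h2an, beside 1.03%. The median was larger than that of either PRC2 knockout. Values over all genes also spread wider in Ezh2-WT, with a standard deviation of 0.39 beside 0.29 in Ezh2-KO and 0.30 in Suz12-KO. Whether the medians differ was not tested. In Ezh2-WT H2B had the highest class median, 0.46 over 13 genes, and H4 the lowest, 0.17 over 13. The neighbours Hist1h2ae and Hist1h2bg stood at 0.90 and 0.89, Hist1h2bb at 0.87 and Hist1h2ao at 0.84. At the other end Hist1h2an stood at -1.07, Hist1h4a at -0.52, Hist1h4b at -0.26 and Hist1h1b at -0.24. These 4 were above 0 in Ezh2-KO, at 0.80, 0.64, 0.52 and 0.55, a comparison that uses the same Ezh2-WT libraries as its control, and below 0 in Ring1A+B-DKO, at -0.77, -0.95, -0.98 and -0.88, which uses the same E14-WT libraries. Of the 53 members with 4 values, 27 were above 0 in Ezh2-KO, Suz12-KO and Ezh2-WT and below 0 in Ring1A+B-DKO. Another 6 were above 0 in all 4, namely Hist1h1t, Hist3h2ba, Hist4h4, Hist2h4, Hist1h4i and Hist1h2ao. The share of all genes with either pattern was not counted, and comparisons that share E14-WT or Ezh2-WT libraries are not independent.

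Many H2A and H2B genes lie head to head and share the DNA between their starts. The annotation holds 12 such pairs with starts within 500 bases, each of 1 H2A and 1 H2B gene. In the authors' deposited table both genes had a value in 11 pairs in Ring1A+B-DKO, and all 11 pairs had the same sign. The median absolute difference within a pair was 0.18 on the log2 scale there, and the largest 0.47, between Hist1h2bl at -0.94 and Hist1h2ai at -0.47. Hist1h2ah and Hist1h2bk were the closest, at -0.32 and -0.36. The testis pair differed by 0.39 and Hist1h2ag and Hist1h2bj by 0.38. Hist1h2bq and Hist1h2ao, counted among the 11, stood at 0.25 and 0.10. The Hist1h2bq value is one that 150 genes hold in common, a mark of very few reads. In Ezh2-KO 9 of 10 pairs had the same sign, with a median difference of 0.17, and in Suz12-KO and Ezh2-WT 7 of 10 did, with 0.27 and 0.40. Hist1h2an and Hist1h2bp differed most in Ezh2-WT, at -1.07 and 0.38. Most members have the same sign in any case, so a shared sign within pairs was not read as particular to them.

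Some members have annotated transcripts that run on past the stem-loop, as polyadenylated histone mRNAs are known to do. In Ring1A+B-DKO the 16 members whose annotated end lies within 50 bases of the stem-loop had a median of -0.51 in the authors' deposited table, and 1 of them, Hist1h2ao, was above 0. The 20 with a longer annotated end, testis genes apart, had a median of -0.34, and 4 were above 0. Just inside the limit lay Hist1h4h with 46 bases, at -0.52, and just outside it Hist1h3b with 51, at -0.51. Those 4 were Hist4h4 with 2445 bases after the stem-loop, Hist2h4 with 1257, Hist1h4i with 330 and Hist3h2ba with 169. Hist1h1c, with 840, stood at -0.03, but Hist1h1d, with 4884, stood at -0.68 and Hist1h2be, with 1861, at -0.78. The 16 without a stem-loop in the annotation, testis genes apart, had a median of -0.43. In Suz12-KO the medians were 0.14, 0.27 and 0.23 in the same order, and in Ezh2-KO 0.16, 0.13 and 0.19. The gene identifiers are those of Ensembl release 72, whose annotated ends were not compared with GENCODE M21.

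**Figure D4:**
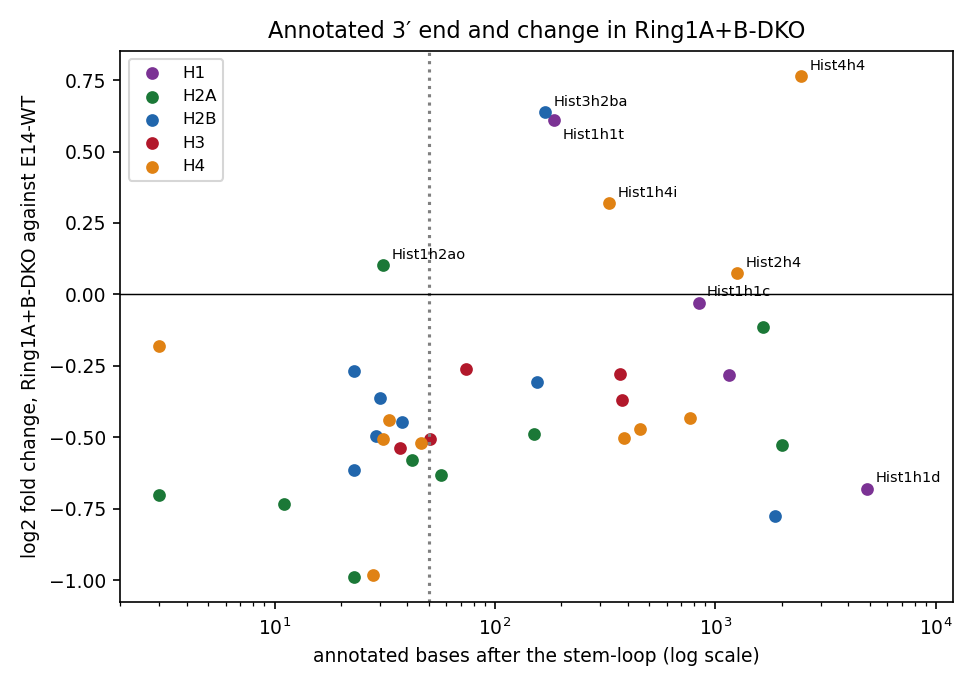
Annotated bases after the stem-loop (x axis, log scale) and deposited log2 fold change in Ring1A+B-DKO (y axis) of the members with a stem-loop, coloured by class, the dotted line at 50 bases. Of the points above 0 all but Hist1h2ao lie to the right of the line, among many right of it that lie below 0.

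Genes of the same pathway and of S phase are set beside the histones, since histone mRNA follows DNA replication. In Ring1A+B-DKO the 42 genes of DNA replication and S phase had a median of -0.56 in the authors' deposited table, with 40 below 0. The authors called 3 of them lower, beside 0.620% of all genes, and 0 higher, beside 2.38%. The 3 were Cdc6, which loads the replicative helicase, at -1.25, the sliding clamp gene Pcna at -1.16 and Uhrf1, which binds hemimethylated DNA, at -1.01. Gins3 was highest at 0.22. The 20 mitosis genes had a median of -0.23 with 0 called, from the cyclin gene Ccnb1 at -0.61 to the kinesin gene Cenpe at 0.27. Histones and S phase genes thus stood on the same side in Ring1A+B-DKO. Between the wild-type lines they stood on opposite sides, with S phase genes at -0.27 (33 of 42 below 0) and mitosis genes at -0.36 beside 0.29 for the histones. In Ezh2-KO and Suz12-KO S phase genes had medians of 0.12 and 0.14. The part of cell cycle stage in the histone values was not tested.

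Of the factors that make or process histone mRNA, 25 had a value in the authors' deposited table. In Ring1A+B-DKO 1 of them fell, the RNA-processing gene Srrt, at -1.04, and the list median was -0.21. Of all genes there, 0.620% were called lower and 3.00% in either direction. Slbp, the stem-loop binding protein, stood at -0.28, Npat, the coactivator of histone gene transcription, at 0.01, Casp8ap2, which is needed for their expression, at -0.09, and Lsm10 and Lsm11, subunits of the U7 particle that cuts the mRNA, at -0.22 and 0.26. Zfp473, another factor of that step, stood at -0.75 in Ring1A+B-DKO and 0.95 in Ezh2-KO. The cyclin genes Ccne1 and Ccne2 stood at 0.64 and 0.74 in Ezh2-KO, 0.69 and 0.45 in Suz12-KO and -0.44 and -0.17 in Ring1A+B-DKO. None of the 25 was called in Ezh2-KO, Suz12-KO or Ezh2-WT, where 0.177%, 0.200% and 0.607% of all genes were.

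Histone variants made outside S phase and histone chaperones gave 1 call between them in Ring1A+B-DKO, where 3.00% of all genes were called. The linker variant H1f0 (ENSMUSG00000096210) fell to -1.10 in Ring1A+B-DKO, where 0.620% of all genes were called lower, per the authors' deposited table. The variant list had a median of -0.09 there over 13 genes, from H1f0 to the macroH2A gene H2afy2 at 0.93, with its relative H2afy at 0.60 and H2afz, the gene of H2A.Z, at -0.88. H3f3a and H3f3b, which both encode H3.3, stood at -0.39 and 0.28. The 27 chaperones had a median of -0.22 and 0 calls, with the H3.3 chaperone gene Daxx at -0.93 and Dnajc9 at 0.61 at the ends. Chaf1a and Chaf1b, of the chaperone that follows the replication fork, stood at -0.46 and -0.53.

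**Figure D5:**
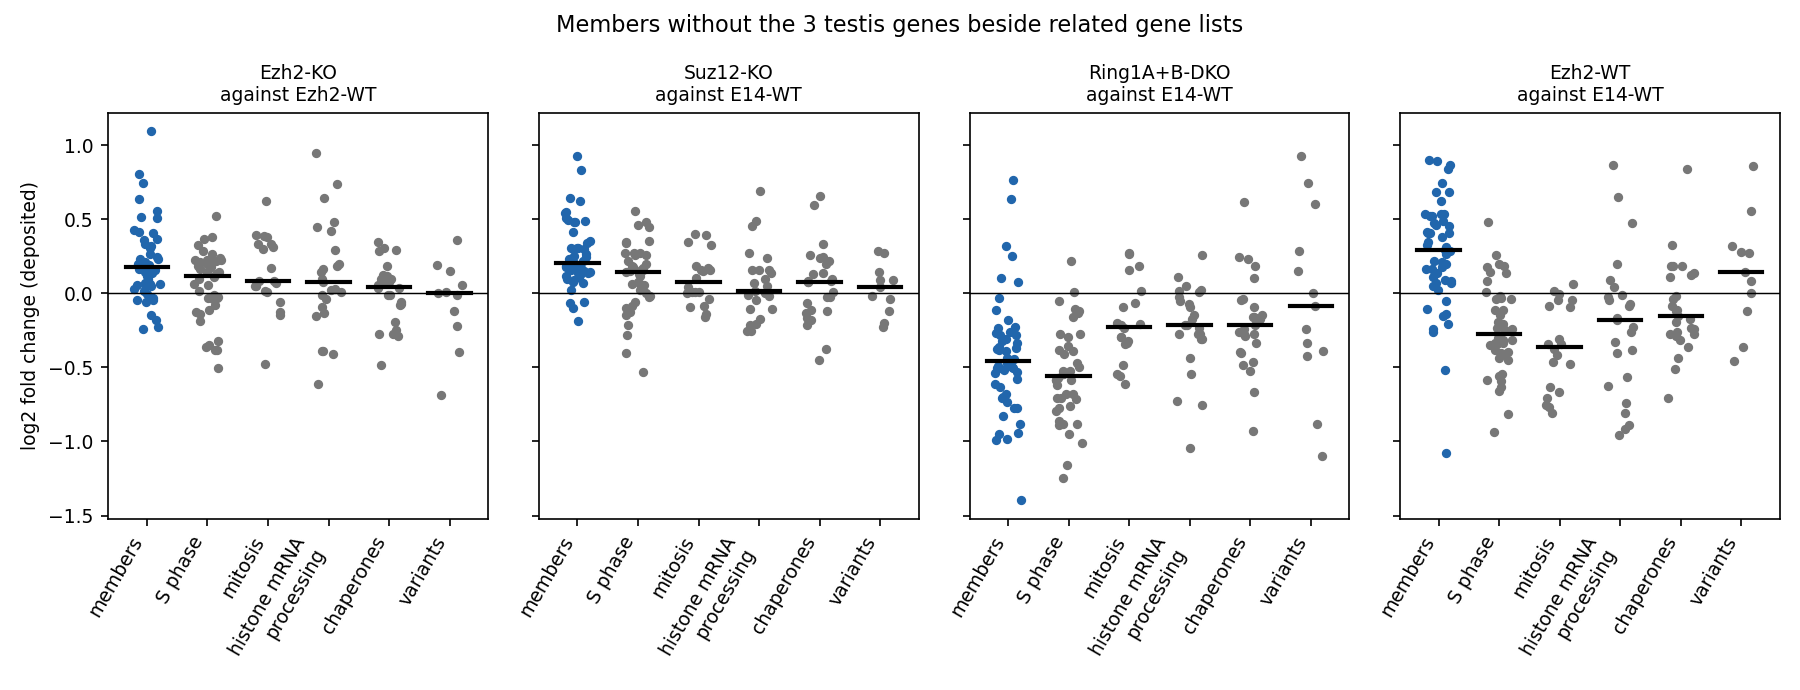
Deposited log2 fold changes (y axis) of the members without the 3 testis genes (blue) and of 5 related gene lists (grey) in the 4 comparisons, with medians as bars. In Ring1A+B-DKO histones and S phase genes have medians of -0.46 and -0.56, and in Ezh2-WT the histones are above 0 while S phase genes are below.

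Markers of the cells were read as fold changes, since levels are not in the table. The 10 stem cell markers had medians between -0.06 and 0.01 in the 4 comparisons, with 5 above and 5 below 0 in each. Among them Klf4 rose in Ring1A+B-DKO, at 1.04, Nanog fell in Ezh2-WT, at -1.15, and Utf1 stood at 1.11 in Suz12-KO without a call. In Ring1A+B-DKO 8 of 8 primitive endoderm markers were above 0, from 0.53 to 2.69, and Gata6, Gata4, Col4a1 and Dab2 rose, while in Ezh2-KO and Suz12-KO their medians were -0.08 and -0.09. Feeder fibroblast markers had a median of 0.46 over 10 in Ring1A+B-DKO, with 8 above 0. Thy1 and Col5a1 rose there, where 2.38% of all genes were called higher, while Fn1 stood at -0.56 and Acta2 at -0.11. Col3a1 and Acta2 held the values of Hist1h2bq and Hist3h2a, which 150 and 537 genes hold in common, a mark of very few reads. Neural markers had a median of 0.47 over 7 in Ring1A+B-DKO, with 6 above 0. Pax6 stood at 1.47 and Nes at 1.29 without a call, while Tubb3 fell, to -2.1, where 0.620% of all genes were called lower. These fold changes do not show whether cells of such types were present, and a part of them in the histone values was not tested. In bulk RNA, a change in the number of cells of a type and a change in RNA per cell cannot be told apart.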

How the data were processed

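The submitters' processing notes name TopHat, featureCounts and DESeq2, which the authors used, and the assembly GRCm38 (mm10); versions and settings were not found in the sources read. The values used are log2 fold changes as the authors deposited them, per the file headers, with a TRUE or FALSE call (another unit) per gene. The file headers name Ensembl release 72 as the source of the identifiers. The planned count model could not be run on such values. GENCODE mouse release 21, on the same assembly, gave symbols, coordinates and transcripts and matched 36602 of 38355 identifiers.

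Missing values were taken to mean that both groups had no reads, and a column was turned where genes read only in the named group were negative. This step was run on simulated data in which missing values had that meaning by design. The run could therefore not check that meaning in the authors' values. DESeq2 fold changes by the authors appear drawn towards 0 for genes with few reads. A value held by several genes marks such genes: 4 members had one in Ring1A+B-DKO, 2 each in Suz12-KO and Ezh2-WT and 1 in Ezh2-KO, with Hist3h2a in all 4. Windows of 60 bases were compared on both strands with all GENCODE transcripts. Named genes are members called, at an absolute value of at least 1 or at a class's extremes, testis members and partners of pairs, and list genes called or extreme in Ring1A+B-DKO; others were named for their role, after their values were seen. The members and lists were chosen with earlier results of these data known. No p-value was computed. Python 3.11.15, numpy 2.4.6, pandas 2.3.3 and matplotlib 3.10.9 were used.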

Additional observations from a re-analysis of the deposited data

How the results depend on the processing

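The median over the members kept its direction in all 4 comparisons under centring on all genes, the mean, and restriction to members with their own value, with at least 50% of windows unique, without an overlapping gene, or without the testis genes. It moved by over 0.1 with the mean in Ring1A+B-DKO, to -0.33 from -0.44, and the mean without the testis genes was -0.42. Of the class medians 1 turned, that of H2B in Ezh2-KO, to -0.0153 over the 8 members with mostly unique windows, from 0.09; the cause was not tested. Another 8 moved by over 0.1. In Ezh2-KO that of H1 came to 0.05 from 0.30, both without the testis gene and without overlapping members, and that of H2A to 0.07 from 0.19 with mostly unique windows. In Ring1A+B-DKO that of H2A came to -0.36 from -0.55 with mostly unique windows. The members with mostly unique windows include the testis genes. Without Hist1h2aa the middle H2A gene among them stood at 0.19 in Ezh2-KO and -0.49 in Ring1A+B-DKO. Without Hist1h2ba the middle H2B gene stood at -0.00 in Ezh2-KO. The mean in place of the median gave -0.45 for H2A, -0.21 for H2B and -0.31 for H4 in Ring1A+B-DKO and 0.67 for H1 in Suz12-KO. Counting members at 1 or more in absolute log2 fold change instead of by the call gave 2 in Ezh2-KO and 1 in Ezh2-WT, where 0 were called, and the same with centring. With centring it gave 7 in Ring1A+B-DKO, where 3 were called. Leaving out replicates, other count models and filters on low counts could not be run without sample values. No paired analysis was possible because the table holds no values per replicate. Depth is unknown, so how far it limits single values cannot be given.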

Other observations

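Of the 3 histone pseudogenes that the definition leaves out, Hist3h2bb-ps, which lies beside Hist3h2a on chromosome 11 and shares 18.9% of the windows of Hist3h2ba, rose in Ezh2-WT over E14-WT, with a log2 fold change of 1.75 in the authors' deposited table. It stood at 1.33 in Ring1A+B-DKO, 0.05 in Ezh2-KO and -0.29 in Suz12-KO. Hist1h2al stood between -0.18 and 0.06 in the 4 comparisons, at values that 64 to 662 genes hold in common, a mark of very few reads. Hist1h2aj had a value in Suz12-KO only, 0.07, which 433 genes hold.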
